A study of Mus musculus with 17 samples.

Results

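The E2F transcription factor genes E2f1 to E2f8 and the pocket protein genes Rbl1 and Rbl2 were followed in mouse neural retinal progenitor cells (mNRPCs) grown with or without basic fibroblast growth factor (bFGF) and CHIR99021. These 10 genes were taken by symbol from 18836 genes listed in at least 1 library, and each of the 10 was listed in all 17 libraries. Rbl1 and Rbl2 are not the whole pocket protein family, and the rest of that family was not followed. The cells came from the retina of adult C57BL/6 mice and were kept as a line, and the labels name no separate animals. A library was made from the day 0 control, which the labels give as untreated and the study describes both as cells in basic medium and as cells before treatment, and from each of 4 media on days 1, 3, 5 and 7, namely plain basic medium (BM) or the same medium to which bFGF (B), CHIR99021 (C) or both agents (BC) had been added. The bFGF protein is a mitogen that acts through FGF receptors, and CHIR99021 is a small molecule that inhibits the kinase GSK-3. Each medium and day had 1 library. Every test below therefore takes its spread from libraries that differ in CHIR99021 or in day, not from repeated cultures.

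E2F proteins bind DNA, most of them as pairs with a DP protein (Tfdp1 or Tfdp2), at the promoters of genes needed to start and carry out DNA replication. In resting or early G1 cells, pocket proteins bind E2Fs and hold these genes down, and phosphorylation by cyclin-dependent kinases releases them as cells enter S phase. E2f1, E2f2 and E2f3 are known as activators, E2f4, E2f5 and E2f6 as repressors that work with pocket proteins or Polycomb complexes, and E2f7 and E2f8 as atypical repressors that bind without a DP partner and are themselves E2F targets late in S phase. Rbl1 (p107) is also an E2F target and is typical of cycling cells, whereas Rbl2 (p130) is typical of resting cells and joins the MuvB complex, which represses cell cycle genes. In the developing retina, E2Fs and pocket proteins are known for coupling progenitor division to cell cycle exit.

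The genes were located by symbol (RefSeq, GRCm38.p6). The activators are at chr2:154559400-154569892 (E2f1), chr4:136172274-136196057 (E2f2) and chr13:29906575-29986064 (E2f3). The repressors are at chr8:105297663-105305370 (E2f4), chr3:14578602-14606309 (E2f5), chr12:16810909-16826752 (E2f6), chr10:110745439-110787384 (E2f7) and chr7:48866429-48882073 (E2f8), and the pocket protein genes at chr2:157145893-157204534 (Rbl1) and chr8:91070057-91123844 (Rbl2).

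Some members carry known sequence words at their promoters, and 4 promoters are shown for that reason. E2f7, E2f8 and Rbl1 fell from day 1 to day 7 in both arms, and E2f3 overlapped between early and late days. E2f2, E2f4 and E2f6 fell in both arms as well but are not shown, and that of E2f6 held no such word. The windows run from 250 bases before to 50 bases after the start of a RefSeq transcript (GRCm38.p6), and 8 of the 10 members, all but E2f4 and E2f5, matched a window. These 8 had 10 windows, so the counts of members below are not in the same unit as the shares of single promoters. An E2F word (TTTCCCGC, TTTCGCGC, TTTGCCGC or TTTGGCGC, on either strand) lay in a window of 4 members, against 2.26% of 32851 mouse promoters. A cell cycle homology region word (TTTGAA, on either strand), the element that MuvB can contact, lay in a window of 4 members, against 17.9% of promoters. Capitals mark the E2F word in the windows of E2f7, Rbl1 and E2f3 and the TTTGAA word, read on the opposite strand, in the window of E2f8. A word match is a description of the letters only.
E2f7, chr10:110745189-110745488, plus strand: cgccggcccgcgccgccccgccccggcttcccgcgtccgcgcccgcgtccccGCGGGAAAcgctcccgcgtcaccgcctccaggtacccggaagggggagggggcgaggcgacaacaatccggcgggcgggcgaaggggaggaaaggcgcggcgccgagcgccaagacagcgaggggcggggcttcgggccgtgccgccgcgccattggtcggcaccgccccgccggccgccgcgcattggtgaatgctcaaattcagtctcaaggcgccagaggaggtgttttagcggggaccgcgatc
Rbl1, chr2:157204485-157204784, minus strand: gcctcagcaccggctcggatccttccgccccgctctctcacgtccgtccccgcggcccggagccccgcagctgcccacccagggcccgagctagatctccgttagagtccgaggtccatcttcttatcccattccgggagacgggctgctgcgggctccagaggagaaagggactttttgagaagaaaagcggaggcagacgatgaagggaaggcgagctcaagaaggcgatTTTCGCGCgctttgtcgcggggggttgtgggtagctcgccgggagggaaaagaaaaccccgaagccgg
E2f3, chr13:29986014-29986313, minus strand: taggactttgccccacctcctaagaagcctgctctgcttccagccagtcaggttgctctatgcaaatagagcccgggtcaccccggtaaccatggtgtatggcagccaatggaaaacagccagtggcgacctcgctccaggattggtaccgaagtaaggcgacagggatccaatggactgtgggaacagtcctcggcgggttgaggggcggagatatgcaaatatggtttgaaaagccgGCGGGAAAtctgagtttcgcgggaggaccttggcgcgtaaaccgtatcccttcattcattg
E2f8, chr7:48881547-48881846, minus strand: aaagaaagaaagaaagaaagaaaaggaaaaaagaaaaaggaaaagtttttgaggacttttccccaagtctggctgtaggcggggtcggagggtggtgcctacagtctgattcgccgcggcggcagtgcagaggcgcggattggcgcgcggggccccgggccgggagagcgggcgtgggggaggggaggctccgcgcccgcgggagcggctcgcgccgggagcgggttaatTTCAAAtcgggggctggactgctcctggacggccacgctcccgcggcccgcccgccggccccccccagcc

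Counted from the transcript start, the E2F word of Rbl1 lay at bases -18 to -11, that of E2f3 at -11 to -4 and that of E2f7 further upstream at -198 to -191. The fourth E2F word, at 40 to 47 in a window of E2f2, is uncertain, because the end of that window matched no annotated E2f2 transcript. The TTTGAA word of E2f8 lay at -20 to -15. The window of E2f3 also held one, at -23 to -18, which is left in lower case. Rbl2 had one at -201 to -196 and another window of E2f2 had one at -31 to -26. The words did not overlap one another, and the windows of E2f1 and E2f6 held neither. The E2f1 window (chr2:154569377-154569676) and the E2f8 window lay wholly inside their genes, which run on to 154569892 and 48882073. The starts of both genes, at those coordinates on the minus strand, were therefore not searched.

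Depth was even, with 17571973 to 19428744 expected counts a library, so the members' levels rested on 47 to 2203 counts each. Composition was less even. The 100 largest genes took 24.5% to 26.2% of the counts in the 4 libraries with bFGF on days 5 and 7 and 15.8% to 19.7% in the other 13, and the TMM factors of those 4 libraries were 0.754 to 0.816 against 1.01 to 1.13 in the other cultured libraries. Scaling by library size alone, as FPKM does, moved the median gene by -0.29 on the log2 scale in the bFGF comparison of days 1 to 7 and by -0.54 on day 7. It also changed the split of called genes, from 3896 higher and 3817 lower with TMM to 2245 higher and 5702 lower. Fold changes below are relative to that median through TMM, and where the direction of a member turned with the scaling this is said beside it. Of 9 retinal progenitor markers, Pax6, Sox2, Nes, Six3 and Hes1 were expressed, with Pax6 at 24.2 FPKM on day 0, whereas Rax and Six6 did not pass 0.07 FPKM in any library.

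In the day 0 control the level of E2f4, at 56.0 FPKM, was the highest among the members, followed by E2f1 at 28.4 FPKM and E2f8 at 21.0 FPKM. Rbl1 (17.3 FPKM), E2f5 (16.7 FPKM) and E2f6 (15.0 FPKM) came next, and the exact 95% counting intervals of neighbours among these 3 overlapped. E2f3 stood at 10.6 FPKM and E2f7 at 7.83 FPKM. Rbl2 (3.84 FPKM, interval 3.46 to 4.25) and E2f2 (3.75 FPKM, interval 3.35 to 4.19) were lowest and could not be told apart. These intervals cover counting error only. By day 7 without bFGF the order had changed: E2f8 and E2f7 were lowest, at means of 1.62 and 0.91 FPKM, and Rbl2 was the fourth highest at 12.7 FPKM, not apart from E2f5 at 13.3 FPKM. With bFGF on day 7, E2f1 was highest at 26.1 FPKM, and E2f2, at 1.63 FPKM, overlapped E2f7 at the bottom of the order.

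**Figure D1:**
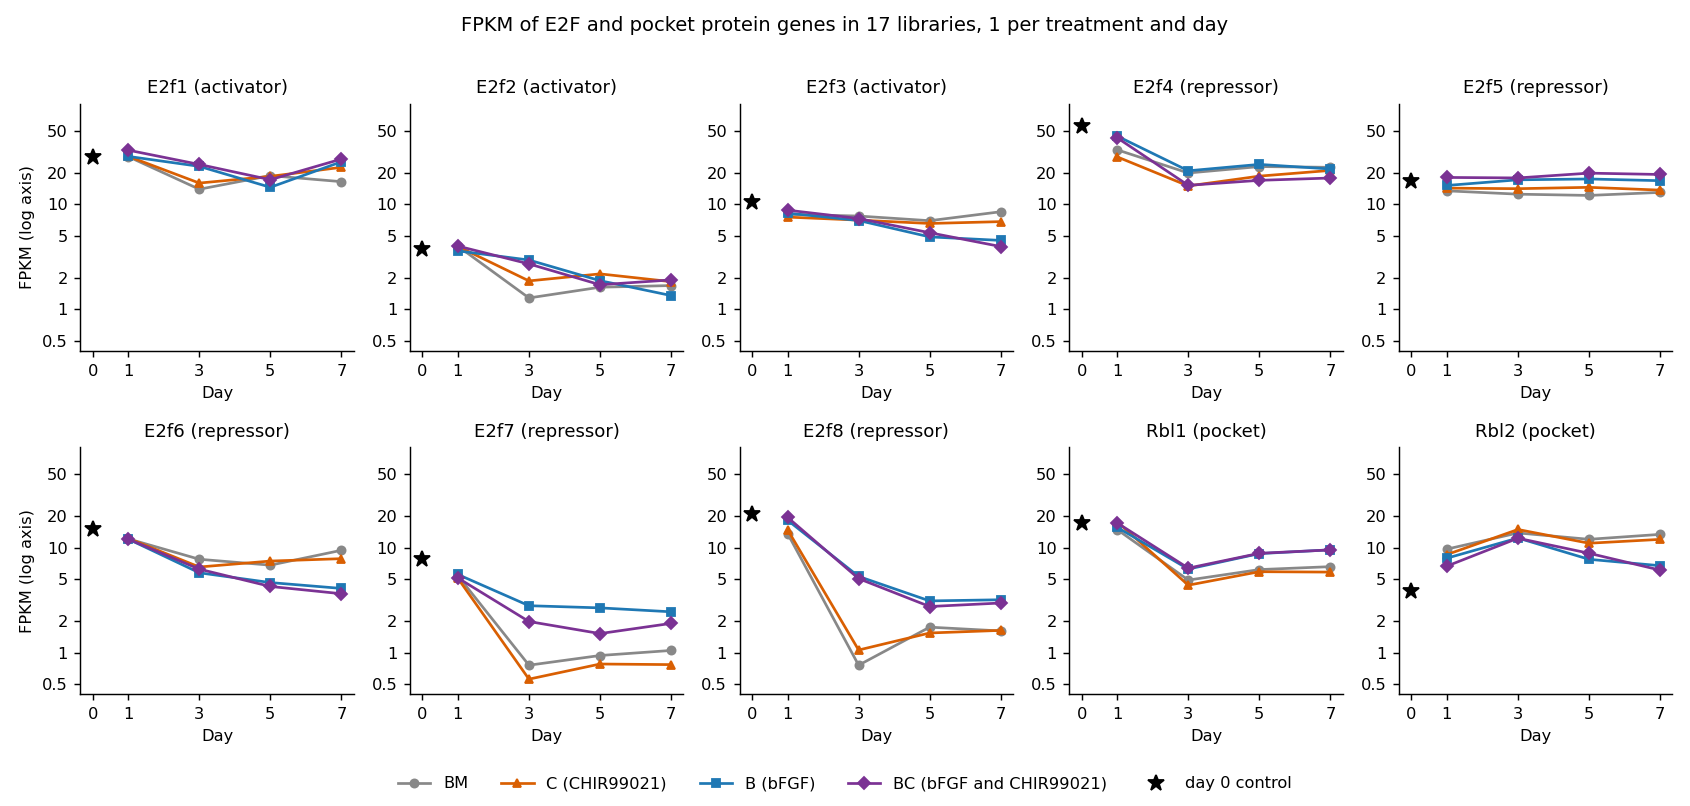
FPKM of each of the 10 genes (log axis) against the day in culture, with 1 point for each library, a line for each medium and a star for the day 0 control. E2f7 and E2f8 lie between 0.56 and 1.75 FPKM on days 3 to 7 without bFGF, and Rbl2 is the gene whose 16 cultured libraries all lie above its day 0 level of 3.84 FPKM.

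The main change in time came between day 1 and day 3. In 7 of the 10 genes (E2f1, E2f2, E2f4, E2f6, E2f7, E2f8 and Rbl1) all 12 libraries of days 3 to 7 were lower in FPKM than all 5 libraries of days 0 and 1, and no member was higher in this sense. Of 11258 genes with a mean of at least 1 FPKM, 17.5% were lower and 7.68% were higher by the same rule. After TMM scaling, which was computed for the cultured libraries only, E2f1 and E2f4 overlapped between day 1 and the later days. The other 5 of these members remained apart. The share of all genes under this rule was not computed, so nothing is read from that count. From day 1 to day 3, 7 members fell and Rbl2 rose without bFGF, against 67.3% of genes called (35.4% higher and 32% lower), and with bFGF 7 fell and Rbl2 rose, against 65.3% (32.4% higher and 32.9% lower). The member lists differed in E2f2 and E2f3. E2f2 changed by -1.40 ± 0.19 without bFGF and -0.43 ± 0.18 with it (adjusted p = 0.0570). E2f3 changed by -0.13 ± 0.10 without (adjusted p = 0.290) and -0.29 ± 0.10 with it (adjusted p = 0.0234). The edgeR test of the difference between the arms called E2f2 (0.97 ± 0.27, adjusted p = 0.01955) but not E2f3 (-0.17 ± 0.14, adjusted p = 0.423). Because the libraries are bulk RNA, fewer cells in a phase of the cycle and less RNA of these genes per cell cannot be told apart.

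Without bFGF, the atypical repressors E2f7 and E2f8 had the largest falls of the 10 members from day 1 to day 7. The level of E2f8 was 21.0 FPKM on day 0 and 13.6 (BM), 14.8 (C), 18.2 (B) and 19.4 FPKM (BC) on day 1. On day 3 it was 0.76 (BM), 1.06 (C), 5.32 (B) and 5.07 FPKM (BC), and on day 7 it was 1.61, 1.63, 3.19 and 2.97 FPKM in the same order. E2f8 thus stood far below day 1 in each medium, and on days 3, 5 and 7 both libraries with bFGF were above both without. The BM library of day 3, 27.6-fold below day 0, rested on 47 counts (exact 95% interval 34.5 to 62.5). On days 3, 5 and 7 E2f7 was also higher in both libraries with bFGF than in both without, with 7.83 FPKM on day 0, 5.10 to 5.55 FPKM on day 1, 0.56 to 1.05 FPKM in the 6 later libraries without bFGF and 1.52 to 2.80 FPKM in the 6 with it.

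In the edgeR fit by day, E2f8 fell from day 1 to day 7 without bFGF, with a log2 fold change of -3.14 ± 0.15 (SE, adjusted p = 2.47e-08) at percentile 0.373 of 11272 genes, and with bFGF, at -2.21 ± 0.14 (adjusted p = 4.79e-08). E2f7 fell with -2.57 ± 0.18 without bFGF (adjusted p = 1.82e-07) and -0.86 ± 0.16 with it (adjusted p = 0.000345). Both were higher with bFGF than without on day 7, E2f7 by 1.81 ± 0.18 (adjusted p = 1.51e-06) and E2f8 by 1.42 ± 0.16 (adjusted p = 3.71e-06). On day 3 the difference was 1.95 ± 0.19 for E2f7 and 2.58 ± 0.16 for E2f8, and on day 1 it was 0.11 ± 0.15 for E2f7 (adjusted p = 0.694) and 0.49 ± 0.13 for E2f8 (adjusted p = 0.0302). The day 1 call of E2f8 was lost when any of the 4 libraries of day 1, or either day 7 library without bFGF, was left out (adjusted p = 0.0596 to 0.301). In log2(FPKM + 1), E2f7 was higher with bFGF in 8 of 8 same-day pairs by 0.62 ± 0.41 (SD; exact two-sided sign-flip permutation p = 0.00781, the smallest that 8 pairs allow) and E2f8 in 8 of 8 by 0.82 ± 0.56 (exact p = 0.00781). Of all genes, 10.6% were higher in all 8 pairs. Exons of E2f8 share 11.2% of their bases with a gene on the opposite strand, Gm2788, and counting by strand is not stated.

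Over the 10 members, 7 fell from day 1 to day 7 without bFGF and 1, Rbl2, rose, against 63.8% of 11272 genes called (32.3% higher and 31.5% lower). With bFGF 7 fell and E2f5 rose, against 75.3% of genes (35.8% higher and 39.5% lower). The bFGF difference on day 7 differed from that on day 1 in 7 members, 5 upward and 2 downward, against 65.4% of genes (31.3% upward and 34.1% downward). The bFGF difference over days 1 to 7, in a model with bFGF, CHIR99021 and day as terms, was called higher in 7 members (E2f1, E2f2, E2f4, E2f5, E2f7, E2f8 and Rbl1) and lower in Rbl2, against 68.4% of genes called (34.6% higher and 33.9% lower). The median member was 0.49 higher on the log2 scale and the median gene -0.00. By day, 2 members were called on day 1, both higher, against 10.7% of genes called and 6.21% called higher. On day 3, 6 members were higher (50.4% of genes called, 25.4% higher), of which E2f5 and Rbl1 were not called with the libraries of day 3 alone (adjusted p = 0.0520 and 0.0614), and on day 5, 5 were higher (75.8% called, 37.2% higher). On day 7 all 10 were called, 7 higher and 3 lower (E2f3, E2f6 and Rbl2), against 78.4% of genes (38.8% higher and 39.6% lower), and so many genes differed by then that a call says little about any one gene. With library size alone, 5 members were called over days 1 to 7, since E2f1, E2f2, E2f4 and Rbl1 did not pass the test and E2f6 did. The comparisons by day, over days and over time share libraries and are not independent of one another.

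**Figure D2:**
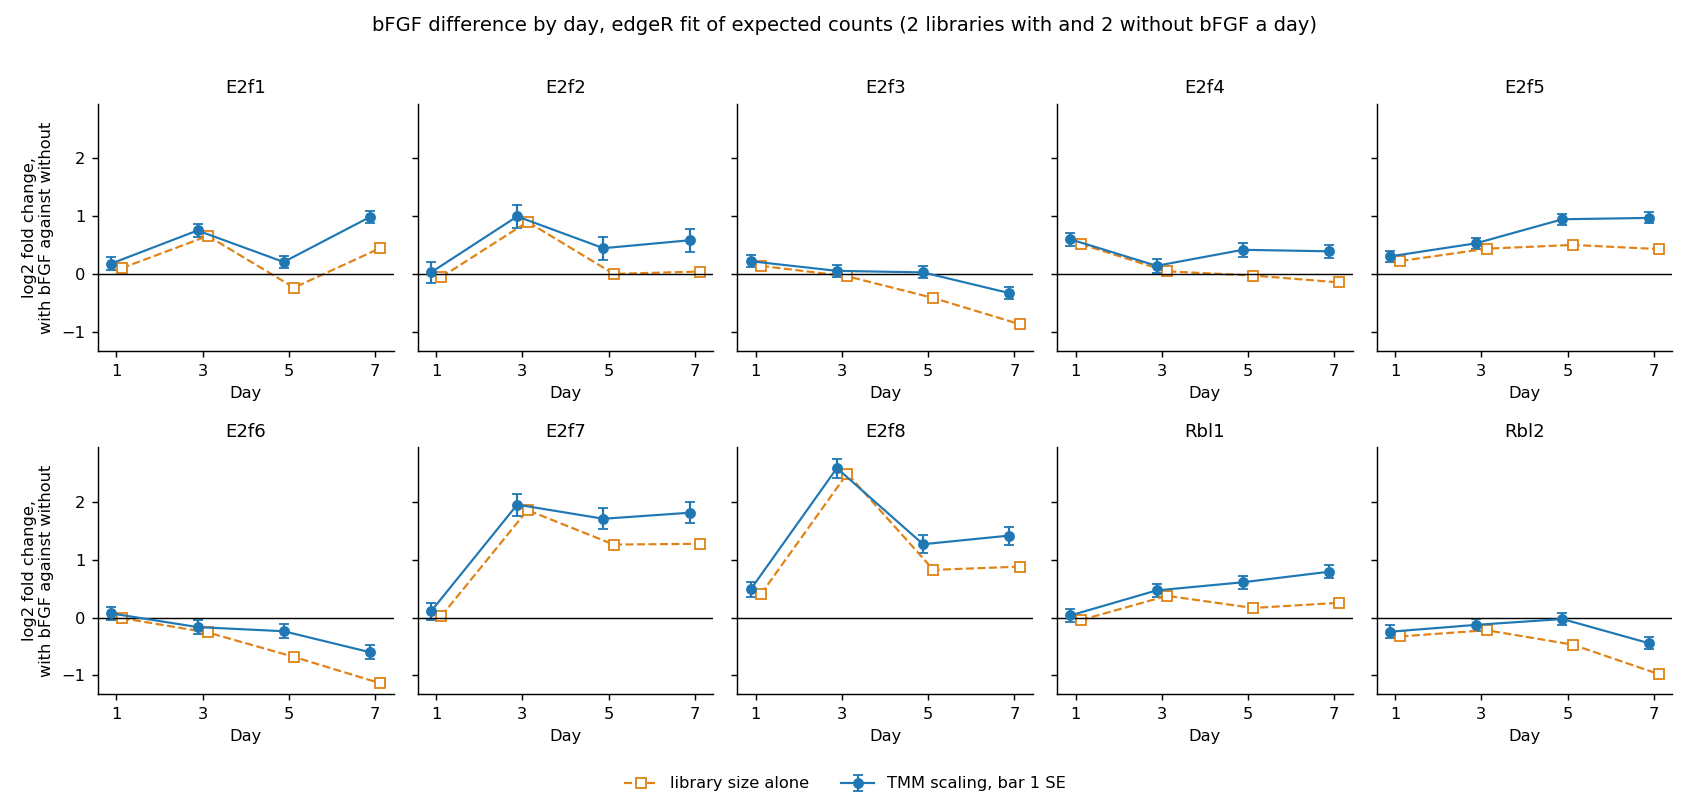
The log2 fold change of libraries with bFGF against those without on each day, for each of the 10 genes, with TMM scaling (filled points, bars of 1 SE) and with library size alone (open points). E2f7 and E2f8 stay above 0 under both scalings on days 3 to 7, E2f3, E2f6 and Rbl2 are below 0 on day 7 under both, and E2f4 on day 7 lies at 0.40 with TMM and at -0.14 with library size alone.

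Among the activators, E2f1 was the most abundant and E2f3 went the other way. E2f1, which can also drive apoptosis genes, had 28.3 (BM), 28.5 (C), 28.5 (B) and 32.7 FPKM (BC) on day 1. On day 3 it had 13.9, 15.9, 22.9 and 23.9 FPKM, on day 5 18.7, 18.4, 14.5 and 17.1 FPKM, and on day 7 16.4, 22.4, 25.3 and 26.9 FPKM. Both libraries with bFGF were therefore higher on days 3 and 7 and lower on day 5. E2f1 fell from day 1 to day 7 without bFGF (-0.60 ± 0.11, adjusted p = 0.000458), whereas with bFGF the difference was 0.21 ± 0.11 (adjusted p = 0.0952) and turned to -0.23 with library size alone. The bFGF difference on day 7 was 0.99 ± 0.11 (adjusted p = 3.77e-06), or 0.45 with library size alone (adjusted p = 0.00196). On day 5 it was 0.21 ± 0.11 (adjusted p = 0.101) and turned to -0.23 with library size alone. Over the 8 pairs E2f1 was higher in 6 (exact p = 0.125), and in 8 of 8 after quantile normalization (exact p = 0.00781).

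E2f2, an activator with a role in blood and immune cells, had 3.59 to 3.99 FPKM in the 4 libraries of day 1. On day 3 it had 1.28 (BM), 1.86 (C), 2.94 (B) and 2.70 FPKM (BC), and on day 7 1.68, 1.83, 1.35 and 1.90 FPKM, so the media were apart on day 3 and overlapped on day 7. Its log2 fold change from day 1 to day 7 was -1.30 ± 0.19 without bFGF (adjusted p = 8.77e-05) and -0.74 ± 0.19 with it (adjusted p = 0.00366), a call lost without the B library of day 7 (-0.54, adjusted p = 0.0539). On day 3 it was 1.00 ± 0.20 higher with bFGF (adjusted p = 0.00126). The day 7 difference of 0.59 ± 0.20 (adjusted p = 0.0180) depended on the scaling, at 0.05 with library size alone and -0.08 with limma on log2(FPKM + 1). Its call was lost without the BC (0.37), BM (0.57) or C (0.56) library of day 7. The edgeR call was also lost with the libraries of day 7 alone (0.57, adjusted p = 0.0666) and with the transcript length as an offset (0.43, adjusted p = 0.0708).

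E2f3 is the remaining activator. It had 10.6 FPKM on day 0 and 7.53 to 8.77 FPKM on day 1, and on day 7 it had 8.47 (BM), 6.82 (C), 4.52 (B) and 3.95 FPKM (BC). Both libraries with bFGF were lowest on day 7. Without bFGF the change from day 1 to day 7 was -0.10 ± 0.10 (adjusted p = 0.407), and with bFGF E2f3 fell, at -0.65 ± 0.10 (adjusted p = 0.00011). On day 7 it was lower with bFGF, at -0.33 ± 0.11 (adjusted p = 0.0128), or at -0.86 with library size alone. The call was lost without the BM (-0.20, adjusted p = 0.159) or the BC (-0.29, adjusted p = 0.0648) library of day 7, and with the libraries of day 7 alone (-0.35, adjusted p = 0.0821). Over days 1 to 7 the difference was -0.00 ± 0.08 (adjusted p = 0.980).

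Among the repressors, E2f4 was the most abundant on day 0, and E2f5 changed little in time without bFGF. E2f4, which carries most E2F activity with pocket proteins in resting cells, went from 56.0 FPKM on day 0 to 32.9 (BM), 28.2 (C), 44.4 (B) and 42.8 FPKM (BC) on day 1. It then lay between 14.9 and 23.9 FPKM in the 12 libraries of days 3 to 7. In FPKM the libraries with bFGF were above those without on day 1, and the media overlapped on each later day. After TMM scaling both libraries with bFGF were also above both without on days 5 and 7. The bFGF difference on day 5 was 0.42 ± 0.12 (adjusted p = 0.00582), but it turned to -0.024 with library size alone. On day 1 E2f4 was higher with bFGF by 0.60 ± 0.11 (adjusted p = 0.00806), a call lost without the BC (0.44, adjusted p = 0.166), BM (0.54, adjusted p = 0.112) or C (0.61, adjusted p = 0.0570) library of day 1. On day 7 the difference was 0.40 ± 0.12 (adjusted p = 0.00814), but it turned to -0.14 with library size alone and was lost without the BM library of day 7 (0.27, adjusted p = 0.121). E2f4 fell from day 1 to day 7, with -0.51 ± 0.12 without bFGF (adjusted p = 0.00211) and -0.72 ± 0.12 with it (adjusted p = 0.00011).

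E2f5, another partner of pocket proteins, had 16.7 FPKM on day 0. It ranged from 12.1 to 14.5 FPKM (median 13.3) in the 6 libraries of days 3 to 7 without bFGF and from 16.7 to 19.7 FPKM (median 17.6) in the 6 with it, so these groups did not overlap. Its change from day 1 to day 7 without bFGF was -0.13 ± 0.10 (adjusted p = 0.241), and with bFGF it rose by 0.53 ± 0.09 (adjusted p = 0.000257), or 0.10 with library size alone (adjusted p = 0.352). The bFGF difference over days 1 to 7 was 0.69 ± 0.10 (adjusted p = 0.000196). E2f5 was higher in 8 of 8 pairs, by 0.37 ± 0.11 (SD, exact permutation p = 0.00781), as 10.6% of genes were.

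E2f6, which represses through Polycomb complexes and without pocket proteins, had 15.0 FPKM on day 0 and 12.04 to 12.25 FPKM on day 1. On day 7 it had 9.43 (BM), 7.85 (C), 4.09 (B) and 3.64 FPKM (BC), with both libraries with bFGF lowest. It fell from day 1 to day 7 in both arms, with -0.51 ± 0.11 without bFGF (adjusted p = 0.00157) and -1.19 ± 0.12 with it (adjusted p = 1.88e-06). On day 7 it was lower with bFGF, at -0.60 ± 0.12 (adjusted p = 0.000563), or at -1.13 with library size alone. Over days 1 to 7 the difference was -0.23 ± 0.10 and narrowly missed the threshold (adjusted p = 0.0537), whereas DESeq2 called it (adjusted p = 0.0363). E2f6 was lower in 8 of 8 pairs (-0.45 ± 0.41 in log2(FPKM + 1), exact p = 0.00781), as were 26.1% of genes, and after quantile normalization it was lower in 4 of 8.

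The pocket protein genes moved in opposite directions. Rbl1 had 17.3 FPKM on day 0 and 14.9 to 17.6 FPKM on day 1. On day 3 it had 4.91 (BM), 4.39 (C), 6.25 (B) and 6.38 FPKM (BC), and on day 7 6.59, 5.85, 9.53 and 9.51 FPKM, so that both libraries with bFGF were above both without on each of these days. Rbl2 had 3.84 FPKM on day 0, its lowest value in any library, and 9.68 (BM), 8.59 (C), 7.94 (B) and 6.67 FPKM (BC) on day 1. On day 3 it had 13.8, 14.9, 12.3 and 12.3 FPKM, and on day 7 13.4, 11.98, 6.73 and 6.11 FPKM. In FPKM, the libraries of Rbl2 with bFGF were lower than those without on each day. After TMM scaling they overlapped on day 5, and the difference was -0.12 ± 0.11 on day 3 (adjusted p = 0.341) and -0.02 ± 0.11 on day 5 (adjusted p = 0.845).

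Rbl1 fell from day 1 to day 7, with -1.43 ± 0.11 without bFGF (adjusted p = 4.71e-07) and -0.67 ± 0.11 with bFGF (adjusted p = 0.000115). Rbl2 rose by 0.45 ± 0.11 without bFGF (adjusted p = 0.00294), a call lost without the C library of day 1 (0.35, adjusted p = 0.0513). With bFGF the change of Rbl2 was 0.25 ± 0.11 (adjusted p = 0.0547) and turned to -0.18 with library size alone. On day 7 Rbl1 was higher with bFGF by 0.79 ± 0.11 (adjusted p = 3.34e-05), or 0.26 with library size alone (adjusted p = 0.0617), and Rbl2 was lower, at -0.44 ± 0.11 (adjusted p = 0.00246), or at -0.98 with library size alone. Rbl1 was higher in 7 of 8 pairs (exact p = 0.0156) and Rbl2 lower in 8 of 8 (exact p = 0.00781), as 26.1% of genes were. After quantile normalization Rbl2 was lower in 7 of 8, with a mean of -0.13 in place of -0.45 (exact p = 0.0469). Exons of Rbl2 share 11.8% of their bases with Gm45464 and 9.17% with Aktip, both on the opposite strand.

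The deposited transcript length of Rbl1, which averages its transcripts by their estimated use, also differed between media. It was 3979 to 4291 bases in the day 0 control, on days 1 and 3 and in the libraries without bFGF, and 3314 (B) and 3004 (BC) on day 5 and 3424 (B) and 3032 (BC) on day 7. The ratio of the highest to the lowest length, 1.43, was reached or passed by 2.81% of 11258 genes, whose median ratio was 1.02. The next highest ratio among the members was 1.14, for E2f2. Because FPKM divides by the length, the FPKM of Rbl1 in B and BC was raised relative to its counts. Rbl1 had 598 (B) and 522 (BC) counts on day 7 against 506 (BM) and 449 (C). With the length as an offset the day 7 difference became 1.15 in place of 0.79. Which transcripts were in use was not tested, since the files give no counts per transcript.

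**Figure D3:**
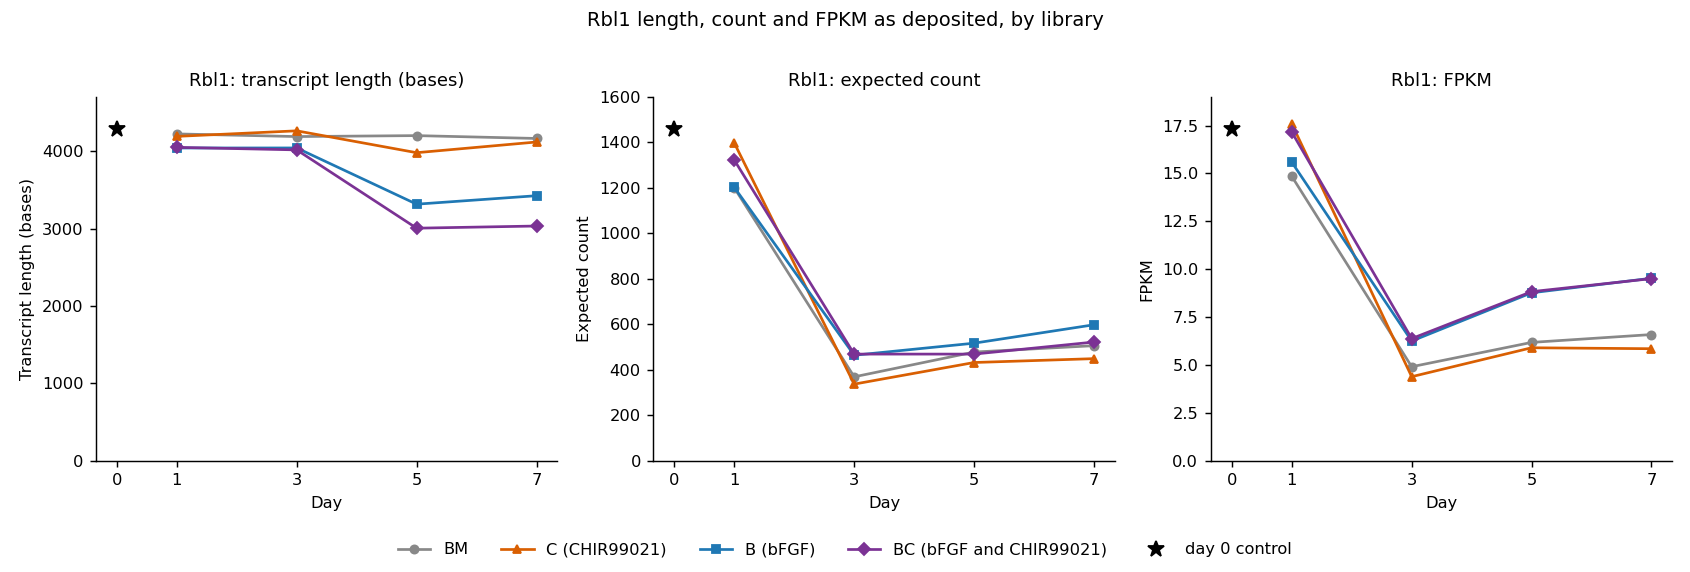
Transcript length, expected count and FPKM of Rbl1 in each library as deposited, against the day, with a line for each medium. The 4 libraries with bFGF on days 5 and 7 have lengths of 3004 to 3424 bases, below the other 13 libraries.

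CHIR99021 had small differences in these genes. None of the 10 members was called in the edgeR test over days 1 to 7, in which 0.337% of genes were called, and 1 member, E2f4, had an unadjusted p under 0.05 (0.00377). DESeq2 called E2f4 (adjusted p = 0.0318), among 281 of 11272 genes. The fit by day called E2f4, E2f5 and E2f7 (adjusted p = 0.00737, 0.0393 and 0.0151), among 2199 of 11272 genes. These are the 3 members that went one way with CHIR99021 in all 8 same-day pairs, C against BM and BC against B. In log2(FPKM + 1), the mean difference was -0.28 ± 0.15 (SD) for E2f4, -0.23 ± 0.16 for E2f7 and 0.15 ± 0.07 for E2f5, and 7% of genes were lower and 6.64% higher in all 8 pairs. E2f7 on day 7, for example, had 1.05 FPKM in BM and 0.77 FPKM in C, and 2.45 FPKM in B and 1.90 FPKM in BC. No member was called for an interaction of bFGF and CHIR99021 in edgeR (0 members with an unadjusted p under 0.05), against 0.00887% of 11272 genes (1 gene).

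The balance between members was compared as ratios of FPKM within a library, which no scaling of the library can change. The summed level of the activators over that of the repressors E2f4 to E2f8 was 0.367 on day 0 and higher in all 16 cultured libraries, from 0.410 (B, day 5) to 0.734 (BC, day 3). On day 7 it was 0.559 (BM), 0.693 (C), 0.649 (B) and 0.721 (BC), so the media with and without bFGF overlapped. The makeup of the repressors differed more. E2f7 and E2f8 made up 24.6% to 26.7% of the summed repressor FPKM on days 0 and 1, 3.66% to 6.06% on days 3 to 7 without bFGF and 9.46% to 15.7% with it. E2f1 made up 81.2% (B) and 82.1% (BC) of the activators on day 7, against 61.7% (BM) and 72.2% (C). The ratio of Rbl1 to Rbl2 was 4.51 on day 0, 1.53 to 2.57 on day 1, 0.295 to 0.536 on days 3 to 7 without bFGF, and 0.506 (B) and 0.519 (BC) on day 3, 1.13 and 0.999 on day 5 and 1.42 and 1.56 on day 7 with it. The shorter Rbl1 length on days 5 and 7 with bFGF enters this ratio.

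**Figure D4:**
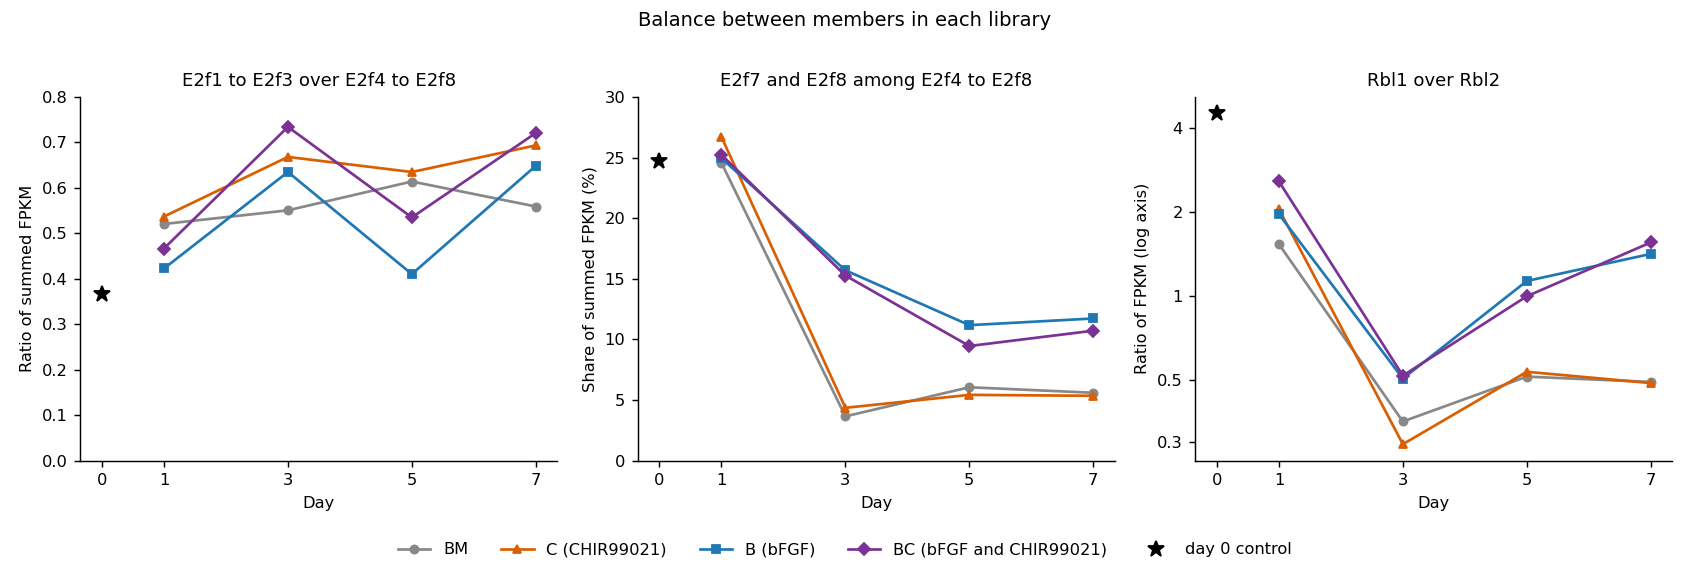
Ratio of summed activator to summed repressor FPKM, share of E2f7 and E2f8 in the summed repressor FPKM (%), and ratio of Rbl1 to Rbl2 (log axis) in each library against the day, with a star for day 0. From day 5 the ratio of Rbl1 to Rbl2 is 0.999 to 1.56 with bFGF and 0.488 to 0.536 without.

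Other genes of the pathway were described as lists. Their counts for bFGF on day 7 are to be read against the 78.4% of all genes called (38.8% higher and 39.6% lower). With library size alone, the matching counts were 2467 higher and 6650 lower of 11272 genes. From day 1 to day 7, 31.5% of all genes fell without bFGF, and 39.5% fell and 35.8% rose with it. Of 32 G1/S genes known as E2F targets, all 32 fell over these days without bFGF, with a median of -1.94 against 0.02 for all genes. With bFGF 27 fell. On day 7, 28 were higher with bFGF and 1 lower, with a median of 1.16 against -0.01 for all genes, or 21 higher and 3 lower with library size alone. Among them Cdt1, which licenses replication origins, was 3.03 ± 0.19 higher with bFGF on day 7 (adjusted p = 3.89e-08), Mcm3, a subunit of the replicative helicase, was 1.93 ± 0.16 higher (adjusted p = 2.77e-07), and the cyclin gene Ccne2 differed by 0.53 ± 0.37 (adjusted p = 0.206). The 19 G2/M genes bound by MuvB went further, and all 19 fell without bFGF (median -3.00). With it, 5 fell and 6 rose, no larger shares than among all genes. On day 7 all 19 were higher with bFGF (median 3.05, under either scaling in the same direction). Cdk1, the mitotic kinase, had 8.53 (BM), 7.61 (C), 43.1 (B) and 48.4 FPKM (BC) on day 7.

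Among partners and regulators, the DP gene Tfdp1 fell from day 1 to day 7, with -1.51 ± 0.09 without bFGF (adjusted p = 9.08e-08) and -1.65 ± 0.09 with it (adjusted p = 2.35e-08), and its bFGF difference on day 7 was 0.18 ± 0.09 (adjusted p = 0.0910). All 7 genes of the MuvB core and its partners were higher with bFGF on day 7, or 4 with library size alone. Of 8 G1 cyclins and kinases, 5 were higher and Ccnd2 was lower, a share called near the 78.4% of all genes, or 2 higher and 1 lower with library size alone. Ccnd1, whose protein activates the kinases that phosphorylate pocket proteins, had 129 (BM), 82.9 (C), 272 (B) and 253 FPKM (BC) on day 7. Of 7 CDK inhibitors, 4 were higher with bFGF and none was called lower, fewer calls than the 78.4% of all genes. With library size alone 3 were called lower, as were 6650 of 11272 genes, a larger share. Cdkn1a, which encodes the CDK inhibitor p21, had 3.27 (BM), 4.48 (C), 47.8 (B) and 44.9 FPKM (BC) on day 7 and was 4.14 ± 0.27 higher (adjusted p = 4.44e-08). Cdkn1b, which encodes p27, differed by 0.09 ± 0.09 (adjusted p = 0.378).

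Of 8 partner genes of E2F6 in its Polycomb complex, 5 were higher with bFGF on day 7 and Pcgf6 was lower, at -1.39 ± 0.19 (adjusted p = 2.90e-05), or 3 higher and 3 lower with library size alone. This share called was near the 78.4% of all genes. Pcgf6 had 6.82 (BM), 6.37 (C), 2.14 (B) and 1.35 FPKM (BC) on day 7, in the same order as E2f6. Of 7 germline genes that E2F6 is known to silence, 6 were listed and none reached the mean of 1 FPKM needed for a test, with Taf7l highest at 0.96 FPKM (BC, day 1).

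**Figure D5:**
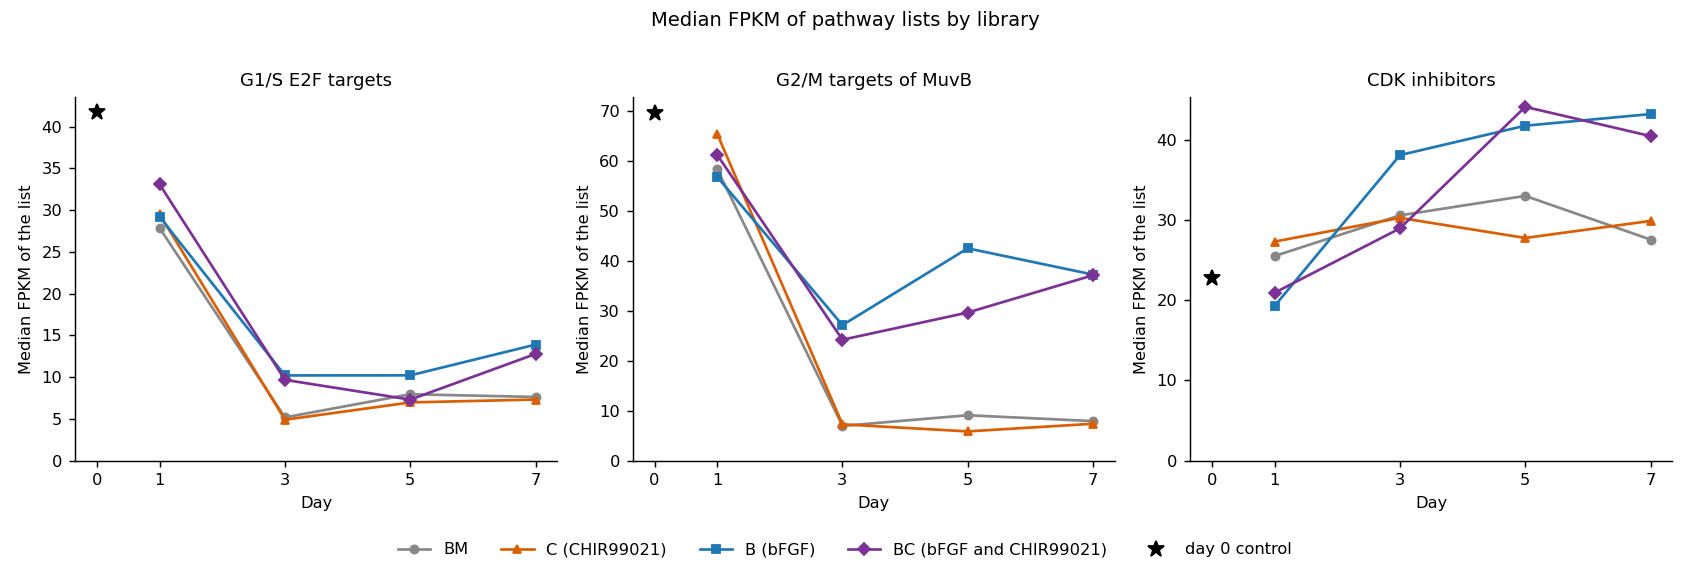
Median FPKM of 32 G1/S genes known as E2F targets, 19 G2/M genes bound by MuvB and 7 CDK inhibitor genes in each library against the day, with a line for each medium and a star for day 0. The G2/M median is 5.87 to 9.10 FPKM on days 3 to 7 without bFGF and 24.2 to 42.5 FPKM with it.

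Levels of marker genes moved with the same groups of libraries. Summed FPKM of 5 endothelial, pericyte and fibroblast markers was 82.9 to 154 in the 6 libraries of days 3 to 7 without bFGF, 5.45 to 33.5 in the 6 with it and 3.94 on day 0. Most of it was Pdgfrb, a receptor of pericytes and fibroblasts, with Col1a1, and the endothelial markers Pecam1 and Cdh5 were at or below 0.09 FPKM in all libraries. Summed FPKM of the 9 retinal progenitor markers was 340 to 404 in the same 6 libraries without bFGF and 96.1 to 207 in the 6 with it. Photoreceptor markers summed to at most 1.04 FPKM and microglia markers to at most 2.48 FPKM. The part of these differences in the levels of the E2F and pocket protein genes was not tested.

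The genes most like each member over the 17 libraries, by Pearson correlation of log2(FPKM + 1) among genes with a mean of at least 5 FPKM, are a description, since the libraries share media and days. For E2f7 they were Fam64a (0.994), Melk (0.988) and Kif4 (0.987), genes of mitosis. For E2f8 they were Ercc6l (0.990), Mcm10 (0.987) and Clspn (0.986), and for Rbl1 they were Eif5a (0.986), Gm21596 (0.985) and Mcm2 (0.984). For E2f6 they were Tdg (0.982), Tdp1 (0.982) and Sephs1 (0.981), and for Rbl2 Mtss1l (0.968), Sft2d2 (0.967) and Fyco1 (0.965). The remaining members had closest correlations of 0.922 (E2f1 with Timm17b), 0.957 (E2f2 with Naa38), 0.965 (E2f3 with Myadm), 0.9746 (E2f4 with Rdh13) and 0.908 (E2f5 with Penk).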

How the data were processed

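Poly-A RNA of 17 bulk libraries of mNRPCs was sequenced on a BGISEQ-500. The authors deposited, for each library, an expected count, a transcript length and an FPKM value for every gene from 0.01 FPKM. Per the labels, reads were aligned to mm10 with Bowtie 2 and quantified with RSEM, whereas the methods of the study name eXpress. Whether counting used strand is not given in the sources used here. FPKM divides by library size and by the length, so a few very abundant genes lower the FPKM of the rest.

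After rounding to integers, the expected counts were scaled by TMM, and 11272 genes with a mean of at least 1 FPKM were tested with edgeR 4.0.16 (R 4.3.3, quasi-likelihood, Benjamini-Hochberg adjusted p under 0.05). One model held bFGF, CHIR99021 and day as terms (10 residual degrees of freedom, biological coefficient of variation 24.7%). Another fitted bFGF on each day (7 degrees of freedom, 10.0%), so that libraries differing in CHIR99021 stood in for replicates. A further model added the bFGF by CHIR99021 interaction (9 degrees of freedom). Day 0, with 1 library, entered no test. Same-day pairs were compared in log2(FPKM + 1) by exact permutation of the signs of the differences, two-sided (scipy 1.17.1). Scripts were tested on simulated data. Alternatives were DESeq2 1.42.0, limma 3.58.1 on FPKM, other scalings and filters, and leaving out each of 16 libraries. A fit with the transcript length as an offset was added after seeing the data. Counting intervals are exact 95% Poisson intervals. All members were named, with values of at most the first 6 genes of each pathway list and the 3 genes most like each member. The members and lists were chosen with earlier results of these data known. The level of 1 marker gene is not reported here.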

Additional observations from a re-analysis of the deposited data

Results flagged for a closer look

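For 7 members the bFGF difference on day 7 was not the same as on day 1 by the edgeR interaction test of the fit by day, and 65.4% of all genes also passed this test. The difference grew by 0.80 for E2f1 (adjusted p = 0.000588), 0.66 for E2f5, 1.71 for E2f7, 0.93 for E2f8 and 0.76 for Rbl1 on the log2 scale, and moved by -0.55 for E2f3 (adjusted p = 0.00543) and -0.67 for E2f6. With library size alone, E2f1 (0.35), E2f5 (0.21), E2f8 (0.47) and Rbl1 (0.30) no longer passed the test, and E2f4 (-0.66) and Rbl2 (-0.65) did. The cause was not tested.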

How the results depend on the processing

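Of 1783 alternative values of 81 named values, 1645 kept their direction and side of the threshold, 57 lost the call, 47 gained one and 34 turned direction. Most were fits that left out 1 library, of which 1094 kept, 20 lost, 16 gained and 6 turned. Among the other alternatives 551 kept, 37 lost, 31 gained and 28 turned, so a smaller part kept. Over days 1 to 7, 5 members were called for bFGF with library size alone in place of 8. For CHIR99021, 1 was called by DESeq2 (with 281 of 11272 genes) and 3 by the fit by day (with 2199 genes) in place of 0. On day 1, 1 was called with library size alone and 1 with limma on log2(FPKM + 0.1) in place of 2, and 0 to 3 when 1 library was left out, with 0 without the BC, BM or C library of day 1. On day 7, 7 to 10 were called when 1 library was left out (7 without BM, 8 without BC and 9 without C of day 7).

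Values that turned direction did so mostly under scalings without TMM, given here in the order library size alone, limma on log2(FPKM + 1) and limma on log2(FPKM + 0.1). On day 5, E2f1 became -0.23, -0.22 and -0.24, E2f3 -0.41, -0.34 and -0.40, and E2f4 -0.024, -0.030 and -0.032. On day 7, E2f4 became -0.14, -0.14 and -0.15. From day 1 to day 7 with bFGF, E2f1 became -0.23, -0.22 and -0.23, and Rbl2 -0.18, -0.16 and -0.18. With limma alone, E2f2 became -0.047 and -0.065 on day 5, -0.077 and -0.12 on day 7, and -0.023 and -0.055 in the change of the bFGF difference. E2f3 on day 5 became -0.090 with a mean of at least 5 FPKM, and over days 1 to 7 it became 0.0019 with the length offset. In the pairs, E2f3 became 0.14 after quantile normalization and E2f4 -0.042 without day 1. After quantile normalization E2f1, E2f2 and E2f4 were each higher with bFGF in 8 of 8 pairs (exact permutation p = 0.00781). The share of all genes that did so was not computed.

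Leaving out 1 library gave -0.049 to 0.038 for E2f3 over days 1 to 7, -0.062 to 0.12 for E2f3 on day 5 and -0.16 to 0.10 for Rbl2 on day 5. Without the BC or B library of day 7, Rbl2 lost its call over days 1 to 7 (-0.18 each). Without the B library of day 5, E2f4 lost its call on that day (0.28). With library size alone, the share of called genes that were higher went from 50.5% to 28.2% over days 1 to 7, 49.5% to 27.1% on day 7, 47.5% to 28.2% from day 1 to day 7 with bFGF and 47.8% to 25.7% in the change of the bFGF difference. The causes were not tested. No replicate block could be fitted, since each medium and day had 1 library, and the same-day pairs served in its place. With 1 culture a condition, spread between cultures is unknown.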
